A study of Mus musculus with 68 samples.

Results

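The tumours described here are 28 mouse mammary tumours with a higher level and 28 with a lower level of Aqr, a gene of chromosome 2. They are 56 of the 68 arrays of the series. Arrays were selected on a mean of the 18S ribosomal RNA control probe sets below 8, and the sides were chosen by the measured value of the brightest Aqr probe set, cut at its least-squares split into an Aqr-high and an Aqr-low side, with at least 20% of arrays on each. All animals were of the ((NZB x PyMT) x FVB) backcross and developed spontaneous tumours under the MMTV-PyMT transgene, in which the mouse mammary tumour virus promoter drives the polyoma middle T antigen in mammary epithelium. Both sides share this transgene and cross. The labels put all tumours in 1 group and give neither a treatment nor an age nor a genotype on chromosome 2, so which strain's allele a tumour carried is not known here. Total RNA was hybridised to Affymetrix arrays, with 1 array for each of the 56 animals, and values are RMA values on the log2 scale.

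In a backcross to FVB, an animal inherits at each autosomal locus either an NZB and an FVB copy or FVB copies alone, and loci near each other on a chromosome are inherited together. A gene whose level depends on the allele at its own locus then falls into separate levels, and so do its linked neighbours that depend on their own alleles. Aqr encodes Aquarius, an RNA helicase that binds introns within the spliceosome and takes part in removing hybrids of RNA and DNA. Ndufaf1, also on chromosome 2, encodes a factor that assembles complex I of the mitochondrial respiratory chain.

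The start regions of both genes are shown because their levels moved together across the tumours. Each window runs from 250 bases before to 50 after the annotated start (RefSeq, GRCm38.p6), for Aqr chr2:114175290-114175589 and for Ndufaf1 chr2:119662785-119663084, both on the minus strand, and is printed 5′ to 3′. Capitals mark CCGGAA or its reverse complement TTCCGG, the core bound by ETS family factors, searched on both strands and chosen with both windows at hand.
Aqr: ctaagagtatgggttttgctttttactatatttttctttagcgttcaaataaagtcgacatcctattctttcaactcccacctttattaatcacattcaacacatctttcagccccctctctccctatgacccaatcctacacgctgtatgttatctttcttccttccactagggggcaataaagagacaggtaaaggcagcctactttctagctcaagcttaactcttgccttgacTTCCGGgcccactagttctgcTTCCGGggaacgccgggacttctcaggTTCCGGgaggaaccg
Ndufaf1: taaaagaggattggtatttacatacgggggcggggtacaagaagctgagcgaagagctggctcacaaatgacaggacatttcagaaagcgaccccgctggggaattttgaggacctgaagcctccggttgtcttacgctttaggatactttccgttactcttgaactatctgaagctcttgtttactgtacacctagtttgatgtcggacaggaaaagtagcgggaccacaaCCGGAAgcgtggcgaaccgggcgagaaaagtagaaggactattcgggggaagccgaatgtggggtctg
The Aqr window held 3 such matches and the Ndufaf1 window 1. Of 32851 windows of this length, 4894 (14.9%) held at least 1. A match is a description of the letters and no evidence of binding.

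The Aqr values that made the sides are given as a description. Aqr had a lowest value of 8.09, a median of 8.27 and a highest value of 8.40 on the Aqr-high side, against 7.68, 7.93 and 8.08 on the Aqr-low side. The means were 8.26 ± 0.08 and 7.91 ± 0.09 (Aqr-high and Aqr-low, SD, n = 28 each), a difference of 0.35. No wide gap separated the sides, since the 3 high arrays nearest the cut lay at 8.09, 8.09 and 8.10 and the 3 low arrays nearest it at 8.04, 8.04 and 8.08. A further Aqr probe set above the filter on dim values differed by 0.17 with overlapping sides, and 3 dim ones by 0.02 to 0.11. For every gene on these arrays, a different amount of transcript and a sequence difference between the strains under the probes cannot be told apart.

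The sides were alike in several technical measures. The 18S control mean was 5.88 ± 0.40 on the Aqr-high and 5.93 ± 0.41 on the Aqr-low side (SD, n = 28 each). The median Gapdh 3′ minus 5′ difference was -0.05 against -0.13, and that of Actb 0.88 against 0.82. Array sets 3 and 4 are groups of arrays that many unlinked probe sets separate, and set 1 is the remainder of the 56. Set 1 held 18 Aqr-high and 21 Aqr-low arrays, set 3 held 6 and 3, and set 4 held 4 and 4. Animal numbers above 4000 made up 10 Aqr-high and 5 Aqr-low arrays, and titles with the suffix R 5 and 3. The luminal keratin Krt8 had medians of 12.43 and 12.44 and the epithelial adhesion gene Epcam 11.82 and 11.86 on the Aqr-high and Aqr-low sides, so epithelial markers were high on both.

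Which genes besides Aqr differed between the sides was tested over 12567 genes with limma and Benjamini-Hochberg adjustment, a gene being called at an adjusted p under 0.05. On the Aqr-high side 9 genes rose (0.0716%) and 2 fell (0.0159%), and all 11 lie on chromosome 2, where they are 0.901% and 0.2% of the genes tested. They make up 0.0875% of all genes tested, 1.1% of the 999 tested on chromosome 2, and 4 of the 115 within 10 Mb of Aqr (3.48%), of which 3 rose (2.61%) and 1 fell (0.87%). Away from chromosome 2, limma called 0 of 11568 genes (0%), with 708 (6.12%) at an unadjusted p under 0.05. On chromosome 2 that share was 10.2%, and among genes within 10 Mb 15.7%. The highest share of any other chromosome was 9.94%, on chromosome 3, close to that of chromosome 2 as a whole. The replicates are separate animals, so these tests measure the spread between tumours.

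Ndufaf1, the complex I assembly factor, had the smallest p. Its lowest, median and highest values were 7.18, 8.03 and 8.42 on the Aqr-high side, against 6.95, 7.42 and 7.95 on the Aqr-low side. The medians stand well apart and the ranges overlap. The means were 8.01 ± 0.21 and 7.43 ± 0.20 (Aqr-high and Aqr-low, SD, n = 28 each), a difference of 0.57 ± 0.055 (SE), or 1.49-fold, with an adjusted p of 1.27e-10 by limma. Of all pairs of an Aqr-high with an Aqr-low array, the Aqr-high one had more Ndufaf1 in 95.5%. Ndufaf1 was named together with Aqr when the split was drawn, so its place at the head of the list is not independent support.

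The arrays that crossed over lay both near the cut and away from it. The lowest Aqr-high value of Ndufaf1, 7.18, came from animal 3197, whose Aqr of 8.09 was just inside the Aqr-high side, and its Rbm45 of 5.42 was low as well. Animal 3739, at an Aqr of 8.10, had 7.64. On the Aqr-low side the highest Ndufaf1 value, 7.95, belonged to animal 3299 with the suffix R, whose Aqr was 8.02. Animal 3290 followed with 7.82 at an Aqr of 7.87, well below the cut. Under the same split rule applied to Ndufaf1 itself, 52 of the 56 arrays fell on the matching side, with 26 Aqr-high and 2 Aqr-low arrays in its upper level, as a description with no test.

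**Figure D1:**
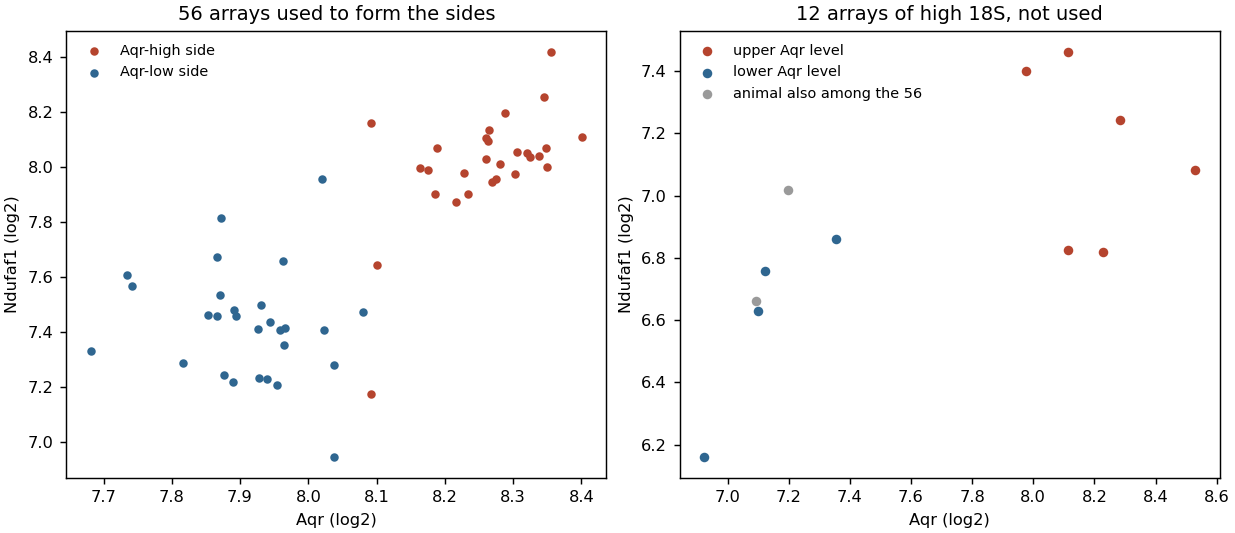
Ndufaf1 against Aqr (log2 RMA values), 1 point per array, for the 56 arrays that formed the sides (left) and the 12 arrays of high 18S that did not (right). On the left the Aqr-high arrays have a median Ndufaf1 of 8.03 and the Aqr-low arrays of 7.42, with 2 crossed points on each side. On the right, arrays of the upper Aqr level average 7.14 and those of the lower level 6.60.

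Rbm45, an RNA-binding protein, had the largest difference of the called genes. It had a lowest value of 5.20, a median of 7.30 and a highest value of 7.71 on the Aqr-high side, against 5.03, 5.60 and 7.33 on the Aqr-low side. The difference was 1.19 ± 0.18 (SE), or 2.28-fold, with an adjusted p of 7.17e-05. Its own values fell into a lower level that ended at 6.07 and an upper level that began at 6.88, and 22 Aqr-high and 4 Aqr-low arrays lay in the upper one. Metap1d, a mitochondrial enzyme that removes the first methionine of proteins, had 6.12, 6.95 and 7.50 on the Aqr-high side, against 5.70, 6.21 and 7.28 on the Aqr-low side. It differed by 0.58 ± 0.099 (SE, adjusted p = 0.000773), and a second, dim Metap1d probe set differed by -0.07. Zfp937, a zinc finger protein, had 6.33, 7.13 and 7.51, against 6.13, 6.68 and 7.33, and differed by 0.38 ± 0.074 (SE, adjusted p = 0.00502).

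Spint1, Itga4 and Nckap1 also rose. Spint1, an inhibitor of serine proteases at the epithelial surface such as matriptase, had 7.99, 8.68 and 9.25 (lowest, median, highest) on the Aqr-high side, against 7.35, 8.20 and 8.74 on the Aqr-low side. It differed by 0.45 ± 0.080 (SE, adjusted p = 0.00126). Itga4, the integrin alpha 4 chain, had 4.36, 5.18 and 6.18, against 4.26, 4.67 and 5.54, and also differed by 0.45, with an SE of 0.087 (adjusted p = 0.00502). Both Itga4 medians lay below 5.41, the value used by the filter on dim values. Most arrays above that value were Aqr-high, so Itga4 entered the test mainly through that side. In 4 dimmer Itga4 probe sets the difference lay between -0.20 and 0.01, so the call rests on 1 probe set. Nckap1, a subunit of the WAVE complex that drives actin branching, was far brighter and differed least, by 0.19 ± 0.034 (SE, adjusted p = 0.00123), with medians of 10.86 and 10.62 on the Aqr-high and Aqr-low sides.

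Of the remaining genes that rose, Rcn1, a calcium-binding protein of the endoplasmic reticulum, had medians of 8.85 and 8.37 on the Aqr-high and Aqr-low sides and differed by 0.39 ± 0.079 (SE, adjusted p = 0.0121). The uncharacterised gene 1700029I15Rik had medians of 5.12 and 4.51 and differed by 0.53 ± 0.072 (SE, adjusted p = 4.31e-06). Both of these medians lay below 5.41, the value used by the filter on dim values, and so did its highest Aqr-low value, 5.17. The gene therefore entered the test through Aqr-high arrays alone. A second, dim probe set differed by -0.05 in Rcn1 and by 0.14 in 1700029I15Rik. Both genes had overlapping ranges.

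The 2 genes that fell were Mpped2 and Ola1. Mpped2, a metallophosphoesterase, had 5.39, 5.72 and 6.16 (lowest, median, highest) on the Aqr-high side, against 5.50, 5.99 and 6.68 on the Aqr-low side. It fell by 0.30 on the log2 scale (SE 0.065, adjusted p = 0.0325), and a second Mpped2 probe set differed by -0.35. Ola1, an ATPase of the Obg family, had 8.25, 8.60 and 9.84, against 8.19, 9.44 and 9.65, and fell by 0.49 (SE 0.11, adjusted p = 0.0438). The ranges of Ola1 overlapped almost whole. Its 2 other probe sets above the filter differed by -0.04 and -0.02, so the lower value holds for 1 of its probe sets above the filter. A dim Ola1 probe set differed by -0.23. With Aqr as a continuous predictor, Ola1 and Rcn1 missed the threshold (adjusted p = 0.32 and 0.23), and Mpped2 did with the probe set of largest SD (adjusted p = 0.386).

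**Figure D2:**
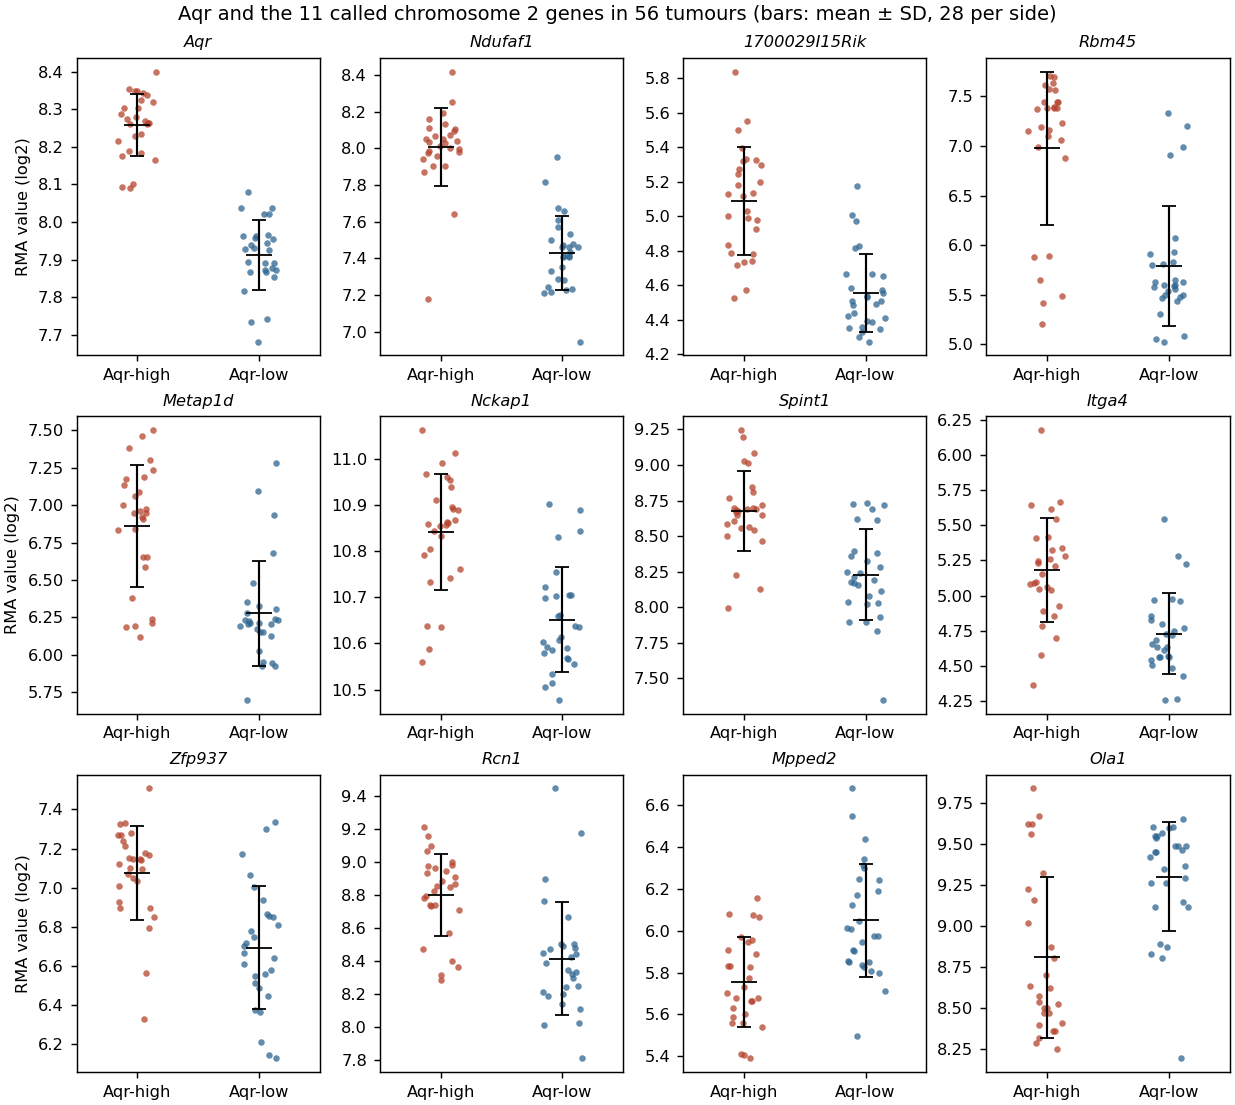
RMA values (log2) of Aqr and the 11 called genes in each of 56 tumours, Aqr-high left and Aqr-low right in each panel, with black bars for the mean ± SD of 28 arrays. Aqr does not overlap because it made the sides. Ndufaf1 is the most separate of the others, Rbm45 falls into an upper and a lower level, and Ola1 and Mpped2 are lower in Aqr-high tumours.

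The called genes were not packed next to Aqr, although calls were denser within 10 Mb of it. There 4 of 115 tested genes were called (3.48%), against 7 of 884 on the rest of chromosome 2. Counted in tested genes along chromosome 2, Ndufaf1 lay 39 places after Aqr and Spint1 29 places after it. Mpped2 lay 19 and Rcn1 23 places before it. Farther before Aqr came 1700029I15Rik at 68, Nckap1 at 123, Itga4 at 126, Rbm45 at 136, Ola1 at 152 and Metap1d at 158 places, while Zfp937 lay 225 places after it. In blocks of 50 tested genes, the share with an unadjusted p under 0.05 was 20% in the first block after Aqr and 14% in the first before it. It reached 26% in the block that holds Rbm45, Itga4 and Nckap1 and 24% in the block with Zfp937, and lay at 4% to 6% in the blocks from 251 to 450 places before Aqr. Blocks after Aqr without a called gene reached 12% at 101 to 150, 16% at 301 to 350 and 12% at 351 to 400 places. The remaining ones after Aqr without a called gene lay at 10% or lower.

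Of the 10 tested genes next to Aqr on each side, limma called 0 of 20, beside 0.0875% of all genes. An unadjusted p under 0.05 was found for 2 of them, beside 6.45% of all genes. Fam98b differed by -0.16 (adjusted p = 0.402) and Dph6, of diphthamide synthesis, by 0.15 (adjusted p = 0.745). The immediate neighbours Arhgap11a and Zfp770 differed by 0.05 and 0.01, with adjusted p-values of 0.918 and 0.979. Eif2ak4, a kinase that senses amino acid shortage, is an exception by probe set. Its brightest probe set differed by 0.06, while a dimmer one had 5.02, 5.48 and 6.57 on the Aqr-high side, against 4.53, 5.21 and 6.07 on the Aqr-low side, a difference of 0.43.

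Testing each of 25482 probe sets instead of 1 per gene called 20 (0.0785%), and added 6 genes, chosen here after their values were seen. Of these 5 lie on chromosome 2. Beside Eif2ak4 (adjusted p = 0.0297), Med19 of the Mediator complex differed by 0.24 (adjusted p = 0.00765) and the intramembrane protease H13 by 0.28 (adjusted p = 0.0249). The brightest H13 probe set differed by -0.0035 and a further one by -0.14, while others differed by 0.11 and 0.04. The mitochondrial carrier Slc25a12 differed by -0.29 (adjusted p = 0.0189), its brightest probe set by -0.00079 and a further one by -0.13. The brightest probe set of Med19 differed by 0.16 (adjusted p = 0.479). Rbm39, a splicing factor, differed by -0.52 in one probe set (adjusted p = 0.035) but by 0.64 in another (adjusted p = 0.236), which shows opposite signs within 1 gene. The gene off chromosome 2 was Birc3, an inhibitor of cell death on chromosome 9, at -0.21 (adjusted p = 0.0412), and its brighter probe set differed by 0.01.

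**Figure D3:**
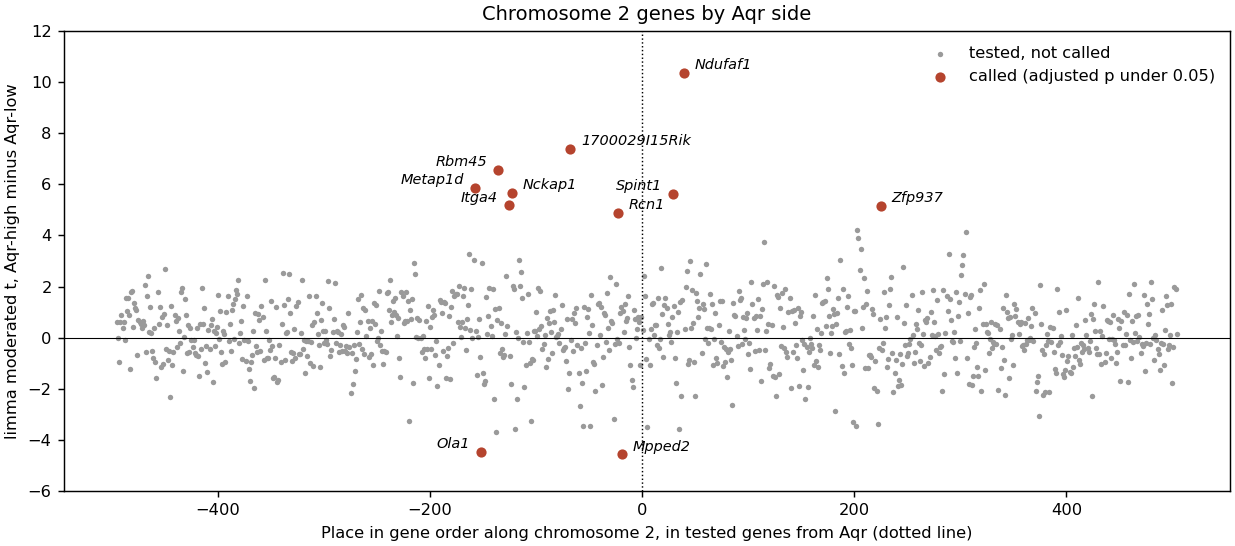
Moderated t of limma (Aqr-high minus Aqr-low) for the 999 tested genes of chromosome 2, in gene order counted from Aqr at the dotted line. The 11 called genes, in red, lie from 158 places before Aqr (Metap1d) to 225 after it (Zfp937), with Ndufaf1 highest.

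No gene of another chromosome was called, and the 5 with the smallest p are given as not called. Mmp14, a membrane-bound matrix metalloproteinase of chromosome 14, had lowest, median and highest values of 7.74, 8.60 and 9.43 on the Aqr-high side, against 8.34, 8.96 and 9.76 on the Aqr-low side. Its difference was -0.40 ± 0.099 (SE, adjusted p = 0.143), and its other probe sets differed by -0.51 and -0.14. Mmp14 passed the threshold with the array sets as a block (-0.44, adjusted p = 0.0191) and with the probe set of largest SD (-0.51, adjusted p = 0.0419). The Golgi protein Gpr89 (0.19, adjusted p = 0.288), Zcchc10 (0.24, adjusted p = 0.295), the serine carrier Sfxn1 (0.30, adjusted p = 0.325) and Zfp938 (0.21, adjusted p = 0.363) followed, and of these Gpr89 passed with the array sets as a block (adjusted p = 0.0408).

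The genes of proteins that work with Aquarius showed no called difference. The other 4 tested members of the intron-binding complex were Isy1 (0.09), Xab2 (0.07), Zfp830 (0.04) and Ppie (0.005), with a median of 0.05 beside 0.02 over all genes, and adjusted p-values from 0.767 upwards. Of 19 tested genes of the Prp19 complex and catalytic spliceosome, limma called 0, 3 had an unadjusted p under 0.05, and the median was 0.02. Those 3 were Cdc5l (0.13, adjusted p = 0.729), Cwc22 (0.10, adjusted p = 0.745) and Plrg1 (0.10, adjusted p = 0.745), of which Cwc22 lies on chromosome 2. Crnkl1 of the same list, also on chromosome 2, differed by -0.06 in its brightest probe set. A dimmer Crnkl1 probe set above the filter differed by -0.28 and was not called either. Of 14 genes for removing hybrids of RNA and DNA and for coupled repair, 0 were called, with 1 (Ercc8, 0.09, adjusted p = 0.749) at an unadjusted p under 0.05.

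Of 16 tested complex I assembly factors, limma called 1, Ndufaf1, beside 0.0875% of all genes. Ndufaf1 was named with Aqr when the split was drawn. The others did not pass the test and ran from -0.05 for Ndufaf4 to 0.11 for Ecsit (adjusted p = 0.772). The 16 had a median of 0.07, beside 0.02 over all genes. Of the 16, 14 lay above 0, beside 162 of the 290 tested genes of all lists. Some of those lists, such as macrophages, held 0 genes above 0, so they are no baseline for all genes. The median of 0.02 over all genes means that more of them lay above 0 than below. Of 33 tested complex I subunits, limma called 0, 3 had an unadjusted p under 0.05, 28 lay above 0, and the median was 0.04. Ndufs5 had the smallest p among the subunits, with a difference of 0.09 (adjusted p = 0.743).

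Markers of other cell types were set beside these genes. Of 11 fibroblast and matrix genes, 0 were called and 0 lay above 0, with 4 at an unadjusted p under 0.05 and a median of -0.17. Postn differed by -0.25 (adjusted p = 0.729), Col6a1 by -0.28 (adjusted p = 0.745) and Sparc by -0.18 (adjusted p = 0.745). Their summed level on the log2 scale ran from 13.30 to 14.78 on the Aqr-high side and from 13.39 to 15.30 on the Aqr-low side. The 12 luminal markers had a median of 0.02, and their sums had medians of 14.83 and 14.86 on the Aqr-high and Aqr-low sides. In whole tumours, fewer cells of a type and less RNA per cell cannot be told apart, and the part of the cell mix in the called genes was not tested. Over all 25 lists, limma called 1 of 290 genes, Ndufaf1, and 16 (5.52%) had an unadjusted p under 0.05, against 6.45% of all genes.

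The differences were compared within technical groups. All 11 called genes kept their sign in array sets 1, 3 and 4, in lower and upper animal numbers, and with and without the suffix R. These groups overlap and are parts of the 56 arrays that made the calls. A kept sign is therefore a description and no independent support. Fitted alone, array set 1 called 4 of the 11 genes, lower numbers 6 and upper numbers 2. Ndufaf1 differed by 0.61 in array set 1 (18 and 21 arrays, Aqr-high and Aqr-low), by 0.41 in set 3 (6 and 3) and by 0.51 in set 4 (4 and 4). Spint1 varied more, with 0.47 among lower animal numbers and 0.16 among upper ones, but 0.41, 0.64 and 0.45 in array sets 1, 3 and 4. Its mean on the Aqr-low side was 8.17 in set 1 and 8.69 in set 4. The part of the array sets in its smaller upper-number difference was not tested. Zfp937 had 0.29 among lower and 0.77 among upper animal numbers. Rcn1 differed by 0.40 in array set 1 and 0.42 in set 4 but by 0.07 in set 3, and by 0.06 with the suffix R (5 and 3 arrays) beside 0.41 without it, so its sign there rests on values close to 0. Mpped2 differed by -0.32, -0.14 and -0.32 in array sets 1, 3 and 4. A test of whether the Aqr difference itself depends on the number range called 0 of 12567 genes (0%), with 1233 (9.81%) at an unadjusted p under 0.05. The smallest p-values belonged to Heph (-1.48), Parva (-0.77), Rab38 (-0.71), Sorbs3 (-0.61) and Tor4a (-0.48), given as the upper-range difference minus the lower-range one, each at an adjusted p of 0.318.

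The 12 arrays of high 18S were not used to form the sides, and 10 of them came from animals outside the 56. Their Aqr values fell into an upper level of 6 arrays, at 7.98, 8.11, 8.12, 8.23, 8.28 and 8.53, and a lower level of 4, at 6.92, 7.10, 7.12 and 7.36. The gap between the levels was wide, unlike that among the 56. Ndufaf1 in the upper level was 6.82, 6.83, 7.08, 7.24, 7.40 and 7.46, against 6.16, 6.63, 6.76 and 6.86 in the lower level. The ranges overlapped by a little, and the means of 7.14 ± 0.28 and 6.60 ± 0.31 (upper and lower level, SD, n = 6 and 4) differed by 0.54 (exact permutation test, two-sided, p = 0.0190, where 0.00476 is the smallest of 210 splits). Without the 2 arrays farthest from the Aqr median, Ndufaf1 differed by 0.329 (exact permutation p = 0.214). Both of them, at Aqr values of 6.92 and 7.10, belong to the lower level of 4. The low p was thus not kept without them, but the weight of these 2 arrays and the smaller sample cannot be told apart.

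All 11 called genes had the same sign in these 10 arrays as in the 56, while 48.4% of the genes off chromosome 2 did. The 11 lie on 1 chromosome and were picked by their differences between the Aqr sides, unlike the genes off chromosome 2. Linked genes are inherited together, so the 11 do not count as separate agreements. Adjusted over the 11 by Benjamini-Hochberg, 6 passed the exact permutation test, each at an adjusted p of 0.0437. They were Ndufaf1, Rbm45 (0.55), 1700029I15Rik (0.41), Spint1 (0.32), Zfp937 (0.70) and Ola1 (-0.68). The other 5 missed the threshold, with differences of 0.30 for Metap1d, 0.38 for Itga4, 0.27 for Rcn1, 0.15 for Nckap1 and -0.22 for Mpped2, and exact permutation p-values from 0.138 to 0.3. Among the 6 that passed, a difference without the 2 arrays farthest from the Aqr median is given for Ndufaf1 alone. Of the 5 leading genes of other chromosomes, Zcchc10 kept its sign (0.39, exact permutation p = 0.0286, adjusted p = 0.143), and Mmp14 (0.02), Gpr89 (-0.06), Sfxn1 (-0.21) and Zfp938 (-0.11) did not.

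**Figure D4:**
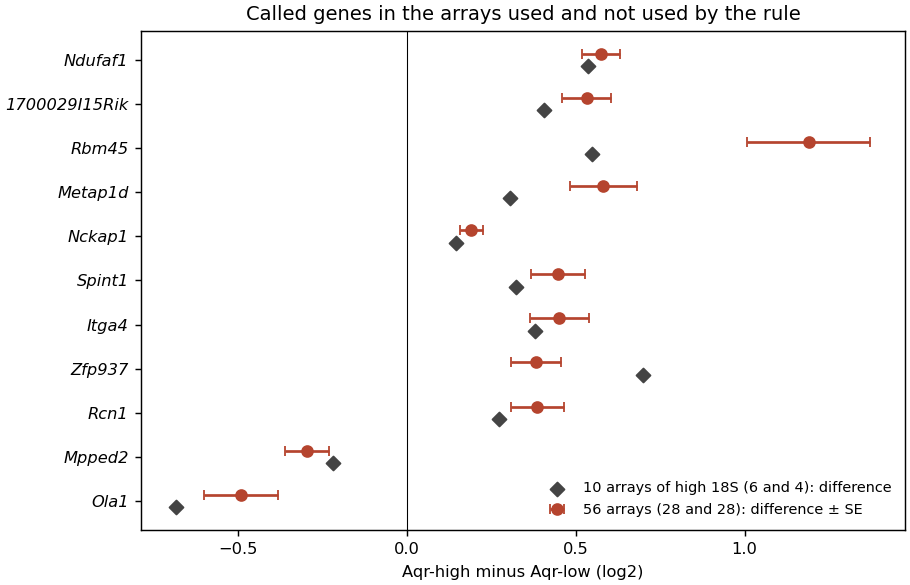
Aqr-high minus Aqr-low difference (log2) of the 11 called genes in the 56 arrays (red circles, ± SE) and, between the upper and lower Aqr level, in 10 arrays of high 18S (dark diamonds). All diamonds lie on the same side of 0 as their circles. Rbm45 is smaller there, at 0.55 beside 1.19, and Zfp937 larger, at 0.70 beside 0.38.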

How the data were processed

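The deposited values are RMA values per probe set, per the submitters' processing notes. No source used here gives the version, array build or log base. The deposited values run between 1.68 and 14.57 and were taken as log2. Of 45101 probe sets, 34945 had 1 gene in the platform annotation, 932 several and 9211 were not listed. Of these, 34741 matched the GRCm38.p6 gene table, which served only for names, chromosomes, gene order and the 10 Mb window. Each gene was represented by its brightest probe set and entered the test where its 95th percentile exceeded 5.41, the overall median of the 56 arrays.

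The sides were compared with limma 3.58.1 in R 4.3.3 (lmFit, eBayes), with Benjamini-Hochberg adjustment over all genes. The test was checked on simulated data. Tables and plots used pandas 2.3.3, numpy 2.4.6 and matplotlib 3.10.9. Members, lists and tests were chosen with earlier results of these data known. The genes named are Aqr and Ndufaf1, up to 15 called chromosome 2 genes, 10 neighbours of Aqr on each side, the 5 genes of other chromosomes and of the interaction with the smallest p, and list members with the smallest p. Array sets are splits of the arrays that 20 or more probe sets from 10 or more chromosomes share. In the arrays of high 18S, a correlation had been planned. Aqr fell into 2 levels there, so the difference between the levels was tested instead, a choice made after seeing the data. The number of arrays limits the precision.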

Additional observations from a re-analysis of the deposited data

Results flagged for a closer look

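Of 3450 tested probe sets with no gene or several genes in the annotation, 3 were called by Aqr side, all without a gene. The first had a lowest value of 4.17, a median of 5.82 and a highest value of 6.66 on the Aqr-high side, against 3.99, 4.59 and 5.99 on the Aqr-low side, a difference of 1.02 (limma, adjusted p = 0.000109). The other 2 were lower on the Aqr-high side, by differences of -0.45 and -0.31 (adjusted p = 0.0242 each). Their genes and chromosomes are not named here.

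In the upper Aqr level of the arrays of high 18S, 1 of 6 arrays stood apart in Rbm45 at 5.68, where the median was 6.16. Its gap to the next array was 0.629 of the whole range, just over the critical value for 6 samples. Of 22 groups examined, chance alone would set off about 1 in 20.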

How the results depend on the processing

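Ndufaf1 was called in all 12 settings, with differences from 0.49 to 0.61. No called gene changed its sign in any setting, and every setting used the 56 arrays or a part of them. The number of genes called moved from 11 to 18 with the array sets as a block, all 11 among them, to 4 in array set 1 alone, and to 6 in lower and 3 in upper animal numbers alone. Over every probe set, an alternative added after seeing the data, 20 probe sets were called, 17 of them with 1 gene and 3 with none. These subsets hold fewer arrays. On chromosome 2 the count was 4 in array set 1, 6 in lower and 2 in upper numbers, and within 10 Mb it was 2 in lower and 1 in upper numbers. Away from chromosome 2 it was 2 with the block (Mmp14, Gpr89), 1 in upper numbers (Ramp1, -0.74), 1 with the probe set of largest SD (Mmp14) and 1 with Aqr as a continuous predictor (Pla2g4a, -0.33); the cause was not tested. Rcn1 and Ola1 lost the call with Aqr continuous and without the 3 arrays of each side nearest the cut, Mpped2 with the largest-SD probe set, Ola1 without a filter, and Itga4 and 1700029I15Rik under a stricter one, where they were not tested. In the arrays of high 18S, Ndufaf1 differed by 0.329 without the 2 arrays farthest from the Aqr median (exact permutation p = 0.214). Both arrays are of the lower Aqr level, so that call was not kept without them, in a smaller sample. With all 12 such arrays it differed by 0.458. The planned rank correlation there was not run. No paired analysis was possible because the labels form 1 group with no shared replicate numbers. Signal over background was not used here.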

Other observations

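The lists not yet described held no called gene. All 19 tested DNA replication genes lay above 0, with a median of 0.11 beside 0.02 over all genes. The smallest p among them belonged to Rfc3, a clamp loader subunit (0.14, adjusted p = 0.745). All 16 tested mitosis genes also lay above 0, with a median of 0.06, led by the spindle gene Nusap1 (0.13, adjusted p = 0.838). Of 14 interferon response genes and 10 macrophage genes 0 lay above 0, with medians of -0.06 and -0.10. Of 9 milk secretion genes 1 lay above 0, with a median of -0.13, and 1 of 10 basal epithelial genes did, with a median of -0.10. Genes of a list move together within a tumour, so a shared sign is a description and no test.

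Of the 12 arrays of high 18S, 2 came from animals that also had an array among the 56. Animals 3296 and 3351 had Aqr values of 7.09 and 7.20 there, within the range of the lower level, and both lay on the Aqr-low side in the 56.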
